A study of Mus musculus with 3 samples.

Results

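Osteoclasts are the bone-resorbing cells that arise when monocytes and macrophages fuse, and 10 genes of that process were followed here: Acp5, Nfatc1, Dcstamp, Ocstamp, Tnfrsf11a, Oscar, Csf1r, Mitf, Car2 and Siglec15. They were taken as a list of gene names, with no threshold on their values, and all 10 were found among the 27179 genes of the table. Mouse bone marrow stromal cell cultures of wild-type genotype, kept at 3% oxygen, were exposed for 3 days to extracellular vesicles, which are membrane particles released by cells, and their messenger RNA was sequenced. The donors of Ocn-EV were crosses of CAGS-Snorkel with Ocn-Cre, a recombinase under the osteocalcin promoter, which is active in mature osteoblasts. Those of Prx1-EV were crosses of CAGS-Snorkel with Prx1-Cre, active in limb-bud mesenchyme and the cells derived from it. All-EV, the control preparation, was taken from wild-type animals without either allele. All donor mice were C57BL/6N and 6 months old, and each vesicle preparation was made from the pooled marrow plasma of 5 mice (2 males and 3 females). Capture on HA-antibody beads is described for every group, and the labels do not state how vesicles of wild-type animals bound to them. The identity and passage of the recipient cells beyond their wild-type genotype are not stated either.

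Each group is 1 library (n = 1), so differences below could not be set against a spread between replicates, and p-values are left out. "Higher" and "lower" compare single libraries. Levels are the deposited normalised counts, in which 1 read is worth 1.04 with Ocn-EV, 0.872 with Prx1-EV and 1.13 with All-EV. Bracketed ranges after a fold are 95% exact intervals from the recovered reads. They cover counting error only and hold no spread between replicates. Reads lack molecular identifiers and can repeat a molecule, so the ranges can be too narrow even for counting error. The comparisons with All-EV share that library.

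As background, osteoclast precursors need macrophage colony-stimulating factor, which acts through the receptor encoded by Csf1r, and RANK ligand, which acts through RANK, encoded by Tnfrsf11a. RANK signalling, helped by immunoreceptors such as OSCAR and Siglec-15 that work through adaptors, induces the transcription factor NFATc1. NFATc1, together with MITF and PU.1, is known to switch on the fusion proteins DC-STAMP and OC-STAMP and resorption genes such as Acp5. In marrow, stromal and osteoblast-lineage cells supply the ligands and the decoy receptor osteoprotegerin, while macrophages are the precursors.

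The libraries held 14233978 (Ocn-EV), 17269204 (Prx1-EV) and 15558165 (All-EV) reads assigned to genes. Macrophage markers were abundant beside stromal ones in every library, although the cultures are labelled stromal. The 12 macrophage markers took 0.920%, 0.779% and 1.29% of the reads with Ocn-EV, Prx1-EV and All-EV, led by Lyz2 and Cd68. The 12 stromal markers, led by Col1a1 and Col1a2, took 0.534%, 0.349% and 0.0851%. The 8 osteoblast markers summed to 2215, 909 and 395 normalised counts, with Alpl and Runx2 or Ibsp in the lead. In bulk RNA, fewer cells of a type and less RNA per cell cannot be told apart. These marker levels moved with the groups, and their part in the results below was not tested.

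Of the 10 genes, 6 had a mean of at least 50 normalised counts over the 3 libraries, the expression filter used here, and 4 did not. The 6 were the receptors Csf1r and Tnfrsf11a, the transcription factors Nfatc1 and Mitf, and the enzyme genes Acp5 and Car2. The 4 were the fusion genes Dcstamp and Ocstamp and the immunoreceptors Oscar and Siglec15, none of which had more than 2 reads in any library. Set against All-EV, both Cre-line preparations had the same 2 genes past 2-fold, Tnfrsf11a on the higher side and Acp5 on the lower. Among the 11067 genes past the filter, 6.27% were higher and 4.2% lower by that margin with Ocn-EV (10.5% in all). With Prx1-EV the shares were 5.12% and 3.66% (8.78% in all). A count of 1 gene of 6 in each direction is too small to set against those shares.

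**Figure D1:**
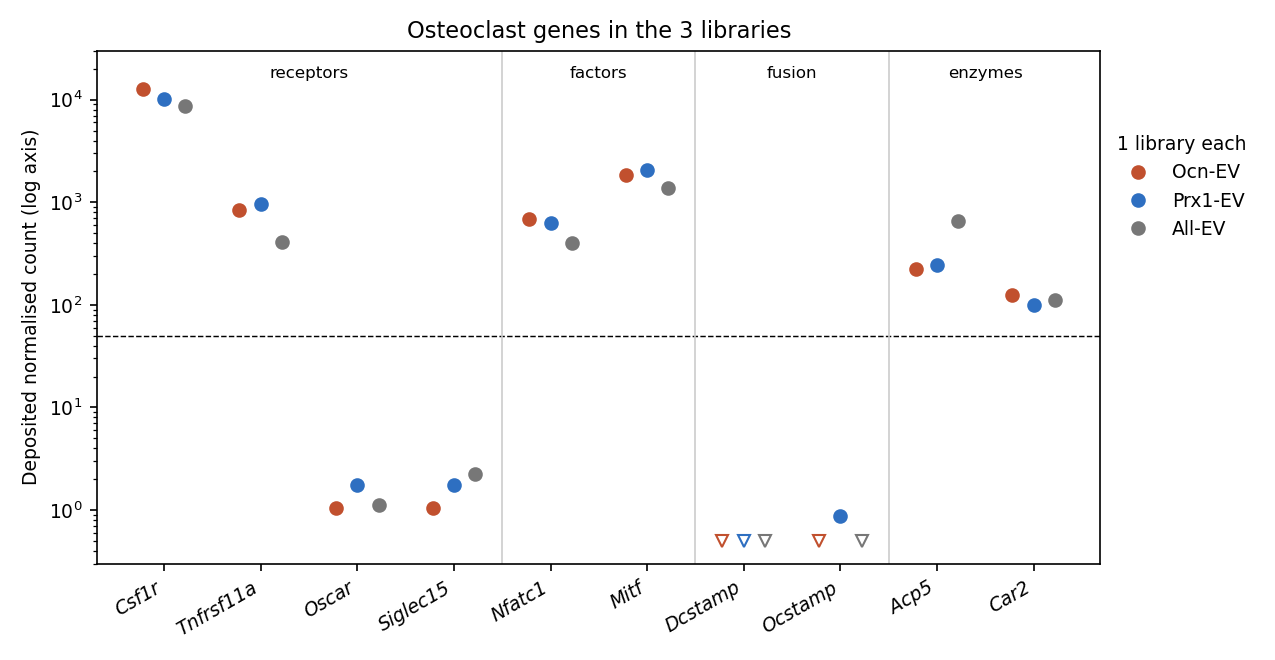
Deposited normalised counts (log axis) of the 10 osteoclast genes, grouped by role, in the Ocn-EV, Prx1-EV and All-EV libraries (1 point per library, no error bars because n = 1 each). Open triangles at the bottom mark libraries with 0 reads, and the dashed line is the filter of 50. Oscar, Siglec15, Dcstamp and Ocstamp lie far below the line, the other 6 genes above it.

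Csf1r, the macrophage colony-stimulating factor receptor gene (GRCm38 chromosome 18, 61105572 to 61131139), was the most abundant of the 10. It stood at 12692 with Ocn-EV, 10201 with Prx1-EV and 8608 with All-EV, so the All-EV culture was the lowest. The fold over All-EV was 1.47 (1.43 to 1.52) with Ocn-EV and 1.19 (1.15 to 1.22) with Prx1-EV. Per transcript length, as reads scaled by transcript length and by all gene-assigned reads (RPKM), its level was 183, 144 and 104, which placed it at rank 257, 340 and 487 of 24390 genes with a known length. Markers of the cells that carry this receptor were mixed. Of the 12 macrophage markers, 4 were at least 2-fold higher and 2 at least 2-fold lower with Ocn-EV than with All-EV, and 2 and 2 with Prx1-EV. These counts are to be read beside the 2-fold shares of all genes given above. Their summed level was 135566 with Ocn-EV, 117290 with Prx1-EV and 226812 with All-EV. Lyz2 made up most of the All-EV sum, at 51741 with Ocn-EV, 40548 with Prx1-EV and 140306 with All-EV. Over the list, 8 of the 12 markers lay above All-EV beyond counting error and 4 below it in both comparisons. Of all 11067 genes past the filter, 32% lay above and 35% below in this way with Ocn-EV, and 33% and 33.7% with Prx1-EV. The median log2 ratios of the markers were 0.78 for Ocn-EV and 0.45 for Prx1-EV. The 8 dendritic cell markers had 1478, 2182 and 1218 reads, nearly all of Itgax, and Cd209a and Siglech were at 0 in every library. Zbtb46 of this list, under the filter, had 10 reads with Ocn-EV, 39 with Prx1-EV and 2 with All-EV. Its fold over All-EV was 4.57 (0.975 to 42.9) with Ocn-EV and 15.0 (3.89 to 129) with Prx1-EV. No other gene of the list had more than 3 reads in any library. The part of such cells in the Csf1r level was not tested.

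Tnfrsf11a, which encodes RANK (chromosome 1, 105780673 to 105849444), stood at 849 with Ocn-EV, 958 with Prx1-EV and 412 with All-EV. Cultures given the Cre-line vesicles were thus both above the control culture. The fold over All-EV was 2.06 (1.82 to 2.34) with Ocn-EV, an interval that reaches below 2, and 2.33 (2.06 to 2.63) with Prx1-EV. Of the 11067 genes, 655 had a higher log2 ratio with Ocn-EV and 367 with Prx1-EV. The level per length was 11.5, 12.6 and 4.65 RPKM with Ocn-EV, Prx1-EV and All-EV, well under that of Csf1r in each library.

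The immunoreceptor genes were near the limit of counting. Oscar, the osteoclast-associated collagen receptor (chromosome 7, 3609813 to 3616157), had 1 read with Ocn-EV, 2 with Prx1-EV and 1 with All-EV. Its fold over All-EV was 0.915 (0.0117 to 71.8) with Ocn-EV and 1.54 (0.0803 to 91.0) with Prx1-EV, so no difference was detectable at this depth. Siglec15, a sialic acid-binding receptor of osteoclasts (chromosome 18, 78042493 to 78057441), had 1, 2 and 2 reads. Its folds over All-EV were 0.457 (0.00775 to 8.79) and 0.771 (0.0559 to 10.6). The adaptor genes through which such receptors signal were abundant. Tyrobp, which encodes DAP12, stood at 4013, 3786 and 5699 with Ocn-EV, Prx1-EV and All-EV, and Fcer1g, the Fc receptor gamma chain, at 3886, 3667 and 4913. Trem2, a partner receptor gene on the same list as the adaptors, was abundant too, at 12396, 13968 and 12339. None of the 3 genes of this list was 2-fold apart. Both adaptors were lower with the Cre-line vesicles than with All-EV, by less than 2-fold. With libraries set to equal totals the log2 ratios for Ocn-EV and Prx1-EV were −0.25 and −0.37 for Tyrobp. For Fcer1g they were −0.08 and −0.20, against −0.34 and −0.42 on the deposited scale.

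Nfatc1, the transcription factor regarded as the master switch of osteoclast formation (chromosome 18, 80606205 to 80713071), stood at 691 with Ocn-EV, 631 with Prx1-EV and 399 with All-EV. The control culture was again the lowest. The fold was 1.73 (1.52 to 1.97) with Ocn-EV and 1.58 (1.39 to 1.80) with Prx1-EV. With libraries set to equal totals its log2 ratio for Ocn-EV was 1.04, past 2-fold, against 0.79 for the deposited scale. Per length it reached 9.77, 8.73 and 4.73 RPKM with Ocn-EV, Prx1-EV and All-EV.

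Mitf, a basic helix-loop-helix factor of osteoclasts, mast cells and melanocytes (chromosome 6, 97807002 to 98021360), stood at 1852 with Ocn-EV, 2072 with Prx1-EV and 1367 with All-EV. Its fold over All-EV was 1.36 (1.26 to 1.46) with Ocn-EV and 1.52 (1.41 to 1.63) with Prx1-EV. The level per length was 25.7, 28.2 and 15.9 RPKM. The 6 melanocyte markers together had 11, 7 and 9 reads with Ocn-EV, Prx1-EV and All-EV, and the pigment enzyme gene Tyr was at 0 in every library. The 8 mast cell markers together had 54, 70 and 14 reads, mostly from Kit and Gata2, and Mcpt4, Tpsb2, Cma1, Fcer1a and Ms4a2 were at 0 in every library. The part of such cells in the Mitf level was not tested.

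The fusion genes were at or next to 0. Dcstamp, which encodes the membrane protein DC-STAMP that mouse osteoclast precursors need to fuse (chromosome 15, 39745930 to 39760938), had 0 reads in all 3 libraries. A count of 0 allows up to 3 reads per library, or 0.106, 0.0870 and 0.0966 RPKM with Ocn-EV, Prx1-EV and All-EV. Ocstamp, which encodes the related fusion protein OC-STAMP (chromosome 2, 165395450 to 165400394), had 0 reads with Ocn-EV, 1 with Prx1-EV and 0 with All-EV. No fold is given for either, since all libraries lie under the floor. Calcr, the calcitonin receptor gene of mature osteoclasts, also had 0 reads in all 3. Atp6v0d2, a proton pump subunit that takes part in fusion of mouse osteoclasts and is also made by macrophages, stood at 8880, 10254 and 9249 with Ocn-EV, Prx1-EV and All-EV.

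Acp5, which encodes tartrate-resistant acid phosphatase, the classic osteoclast stain (chromosome 9, 22126727 to 22135746), ran the other way from the receptors. It stood at 222 with Ocn-EV, 247 with Prx1-EV and 659 with All-EV, so the control culture held by far the most. It was 2.97-fold lower (2.54 to 3.49) with Ocn-EV and 2.67-fold lower (2.31 to 3.09) with Prx1-EV. Of the 11067 genes, 136 had a lower log2 ratio with Ocn-EV and 161 with Prx1-EV. Per length it was at 10.4 and 11.3 RPKM with Ocn-EV and Prx1-EV, against 25.9 RPKM with All-EV. Macrophages can make Acp5 too. Their 12 markers went both ways, as given beside Csf1r, and the part of such cells in the Acp5 level was not tested.

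Car2, which encodes the carbonic anhydrase that supplies protons for acid secretion (chromosome 3, 14886269 to 14900770), stood at 125 with Ocn-EV, 98.6 with Prx1-EV and 111 with All-EV. The fold was 1.13 (0.858 to 1.49) with Ocn-EV and 0.889 (0.672 to 1.18) with Prx1-EV, and no difference was detectable at this depth. The sign of the Prx1-EV ratio turned with scaling, with a log2 of −0.17 on the deposited scale, against 0.05 once libraries were set to equal totals. Car2 is also abundant in red blood cells, whose 7 measured markers together had 32, 24 and 44 reads with Ocn-EV, Prx1-EV and All-EV. Car2 itself had 121, 113 and 98 reads. The part of such cells in the Car2 level was not tested.

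**Figure D2:**
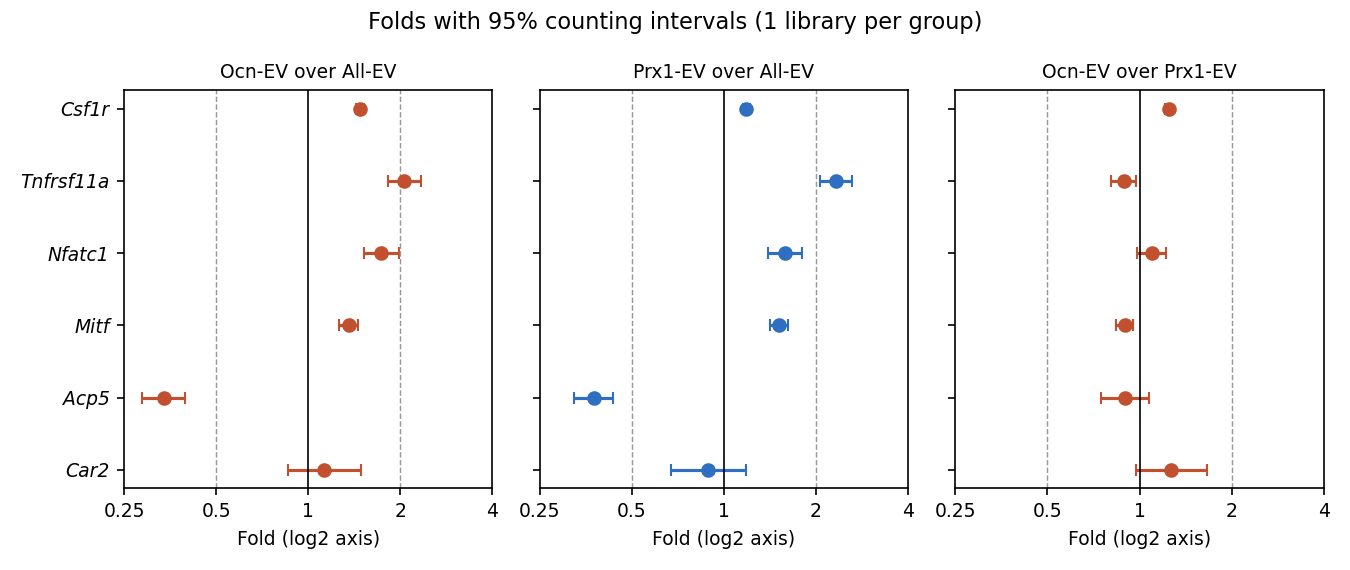
Fold of each of the 6 genes past the filter (log2 axis) in the comparisons Ocn-EV over All-EV, Prx1-EV over All-EV and Ocn-EV over Prx1-EV, with 95% counting intervals as bars (1 library per group). Dashed lines mark 2-fold. Tnfrsf11a lies at 2.06 and 2.33 and Acp5 at 0.336 and 0.375 in the comparisons with All-EV, while all 6 lie between 0.886 and 1.27 between Ocn-EV and Prx1-EV.

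Because the scale of a library cancels in a ratio of reads taken within it, the genes were also set against each other in each library. Acp5 had 0.261 reads (0.223 to 0.304) per read of Tnfrsf11a with Ocn-EV and 0.258 (0.225 to 0.294) with Prx1-EV, against 1.60 (1.40 to 1.83) with All-EV. In levels per length Acp5 was thus slightly below Tnfrsf11a with Ocn-EV (10.4 and 11.5 RPKM) and Prx1-EV (11.3 and 12.6 RPKM), and well above it with All-EV (25.9 and 4.65 RPKM). Per read of Nfatc1, Acp5 had 0.321 (0.274 to 0.375), 0.391 (0.340 to 0.450) and 1.65 (1.44 to 1.89) reads with Ocn-EV, Prx1-EV and All-EV. Per read of Csf1r the values were 0.0175, 0.0242 and 0.0765. Per read of Csf1r, Nfatc1 had 0.0544 (0.0503 to 0.0588), 0.0618 (0.0573 to 0.0667) and 0.0464 (0.0416 to 0.0516) reads with Ocn-EV, Prx1-EV and All-EV. Tnfrsf11a had 0.0669, 0.0939 and 0.0479 and Mitf 0.146, 0.203 and 0.159 on the same measure, so these pairs were not constant either. Against Ctsk, which encodes the collagen-degrading protease cathepsin K, the order turned round. Acp5 had 0.263 (0.225 to 0.306) reads per Ctsk read with Ocn-EV and 0.255 (0.223 to 0.291) with Prx1-EV, against 0.157 (0.144 to 0.172) with All-EV, so Ctsk was lower than with All-EV by more than Acp5 was. Such ratios show unequal change and not which of the paired genes differed.

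**Figure D3:**
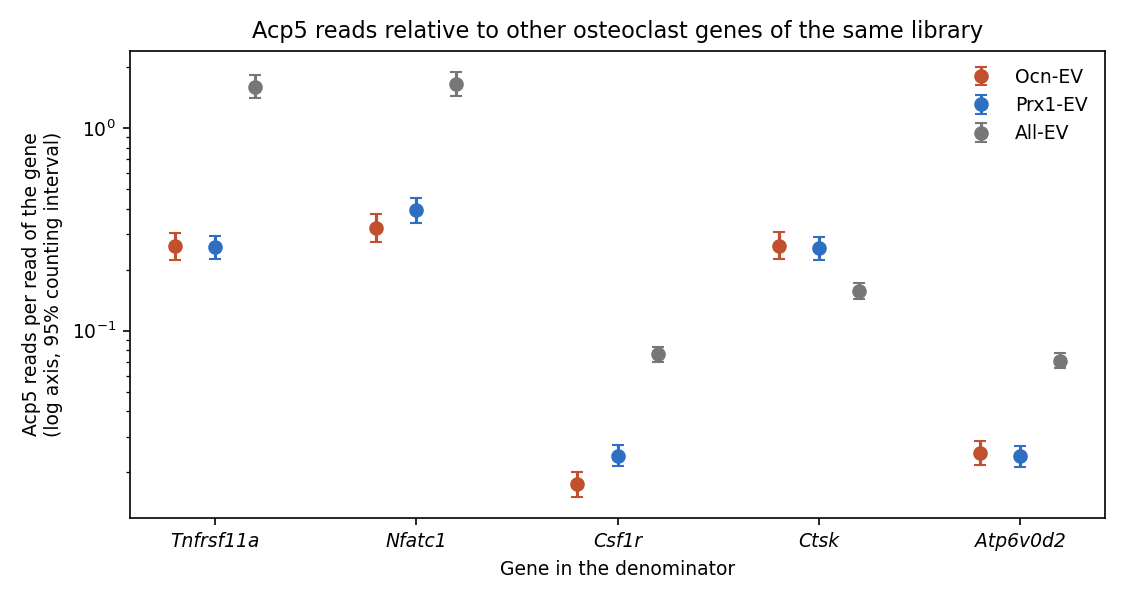
Reads of Acp5 per read of 5 other genes of the same library (log axis), with 95% counting intervals, for Ocn-EV, Prx1-EV and All-EV (1 library each). All-EV lies above the other libraries for Tnfrsf11a, Nfatc1, Csf1r and Atp6v0d2, and below them for Ctsk.

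Between the cultures given Ocn-EV and Prx1-EV, none of the 6 genes was 2-fold apart, beside 0.515% of the 11067 genes (0.325% higher with Ocn-EV and 0.19% lower). Csf1r was 1.24-fold higher (1.21 to 1.28) with Ocn-EV than with Prx1-EV. Tnfrsf11a, at 0.886 (0.809 to 0.971), and Mitf, at 0.894 (0.840 to 0.951), were slightly lower. That is 1 gene of 6 above and 2 below counting error, beside 15.8% and 20.3% of all genes. The folds of Acp5 at 0.897 (0.748 to 1.08), Nfatc1 at 1.09 (0.984 to 1.22) and Car2 at 1.27 (0.975 to 1.66) were within counting error.

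**Figure D4:**
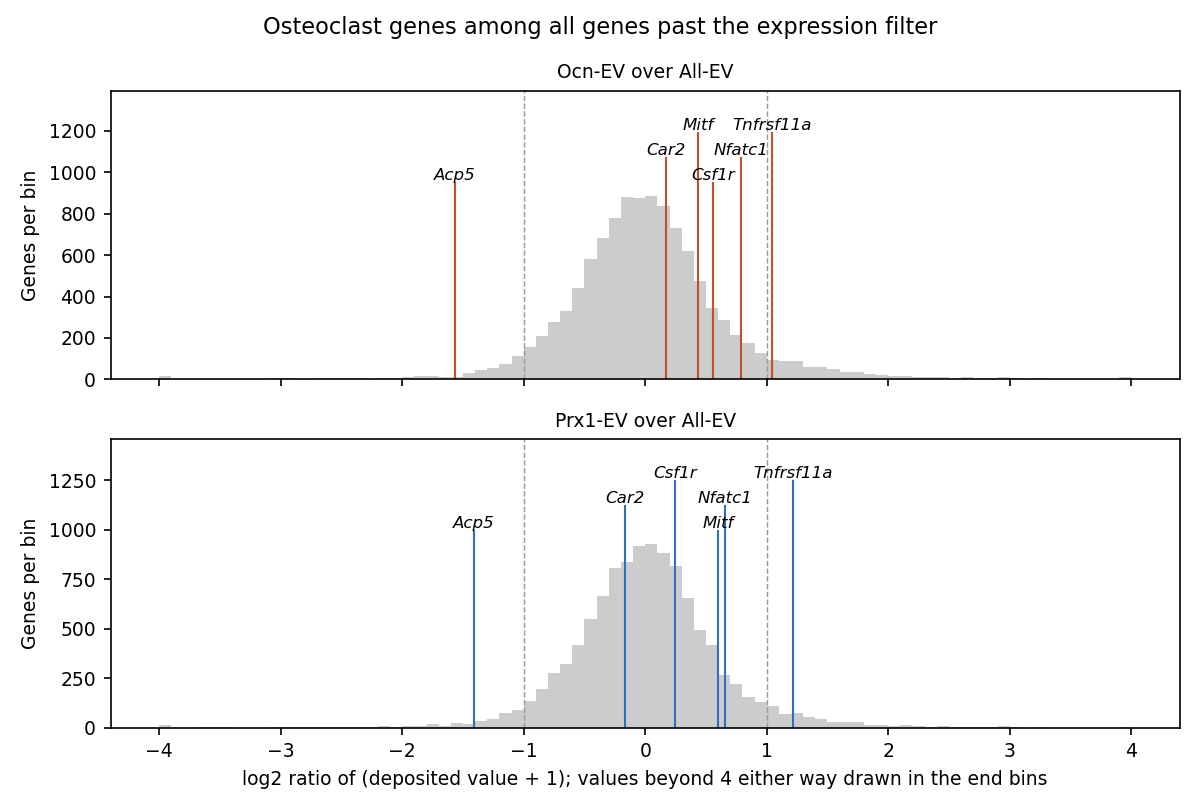
Distribution of log2 ratios of (deposited value + 1) over the 11067 genes past the filter (grey), for Ocn-EV over All-EV and Prx1-EV over All-EV, with vertical lines at the 6 osteoclast genes past it and dashed lines at 2-fold. Acp5 lies in the lower tail at −1.57 and −1.41 and Tnfrsf11a in the upper at 1.04 and 1.22, with the other 4 between −0.17 and 0.79.

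The median log2 ratio of the 6 genes was 0.50 with Ocn-EV and 0.42 with Prx1-EV, beside medians of −0.02 and 0.00 over all 11067 genes. For Ocn-EV the counting interval lay above a fold of 1 for 4 of the 6 genes and below it for 1, and the same counts held for Prx1-EV. Over all genes it lay above for 32% and below for 35% with Ocn-EV, and for 33% and 33.7% with Prx1-EV. Setting libraries to equal totals raised the median of all genes to 0.24 with Ocn-EV and 0.22 with Prx1-EV. That rescaling took the share of higher genes among all those 2-fold apart to 81.8% with Ocn-EV and 79.6% with Prx1-EV, against 59.9% and 58.3% on the deposited scale.

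Upstream sequence was available for 4 of the 10 genes, with 8 annotated starts, from RefSeq (GRCm38.p6). Windows are shown for Acp5, the gene that was lower, for Tnfrsf11a, the gene that was higher, and for Oscar, which was almost silent although MITF and PU.1 are known to act on it in osteoclasts. In the 250 bases before each start, 5 short motifs were searched on both strands. They were GAGGAA of PU.1, TGANTCA of AP-1, CACGTG and CATGTG bound by MITF, and GGAAA of NFAT, which can overlap the end of GAGGAA. They occur in 23.3%, 6.75%, 6.02%, 12.3% and 55.6% of 32851 annotated starts. Sequences run 5′ to 3′ on the gene's strand and stop before annotated exons, and capitals mark every match other than GGAAA. The Acp5 window, before the most downstream of its 3 starts, is chr9:22130609-22130848 (minus strand), that of Oscar is chr7:3616158-3616407 (minus strand), and that of Tnfrsf11a is chr1:105780473-105780672 (plus strand).
Acp5: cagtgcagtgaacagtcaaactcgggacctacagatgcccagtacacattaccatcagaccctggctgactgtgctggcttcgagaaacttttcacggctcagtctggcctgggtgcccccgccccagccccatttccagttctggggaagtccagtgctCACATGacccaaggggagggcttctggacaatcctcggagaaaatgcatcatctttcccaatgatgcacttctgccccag
Tnfrsf11a: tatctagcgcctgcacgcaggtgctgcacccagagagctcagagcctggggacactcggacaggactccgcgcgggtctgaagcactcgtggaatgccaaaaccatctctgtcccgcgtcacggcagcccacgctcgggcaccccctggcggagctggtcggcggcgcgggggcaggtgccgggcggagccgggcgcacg
Oscar: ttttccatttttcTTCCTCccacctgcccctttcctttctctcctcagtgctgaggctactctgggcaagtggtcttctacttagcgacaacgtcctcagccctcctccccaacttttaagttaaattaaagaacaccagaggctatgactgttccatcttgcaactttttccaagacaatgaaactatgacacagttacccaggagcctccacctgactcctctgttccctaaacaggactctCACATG
The Acp5 window held 1 match to a capitalised motif, CATGTG on the opposite strand 90 bases before the start. The other Acp5 starts held none of the capitalised motifs. Oscar held 1 match to CATGTG and 1 to GAGGAA, both on the opposite strand. Tnfrsf11a and the 3 Mitf starts held none of the capitalised motifs. GGAAA matched 2 times before this Acp5 start, 0 times before Tnfrsf11a and 3 times before Oscar. A match says only that these letters are present.

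The wider pathway was described by 60 further genes in 7 lists. Of these, 56 passed the filter, and the 2-fold mark over All-EV was passed upward by 4 and downward by 6 of them with Ocn-EV, and by 4 and 5 with Prx1-EV. These are 7.14% and 10.7% of the 56 with Ocn-EV and 7.14% and 8.93% with Prx1-EV, to be read beside the shares of all genes above. The median log2 ratio of the 56 was 0.09 with Ocn-EV and 0.11 with Prx1-EV. With libraries set to equal totals, 7 were higher and 4 lower with Ocn-EV, and 8 and 4 with Prx1-EV.

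The cytokine side was carried by the decoy and the growth factor, and hardly by the ligand. Of the 4 genes of that list 2 passed the filter. Tnfsf11, which encodes RANK ligand, had 4 reads with Ocn-EV, 3 with Prx1-EV and 0 with All-EV, too few to compare. Tnfrsf11b, the decoy receptor osteoprotegerin that blocks RANK ligand, stood at 238, 217 and 52.1, 4.57-fold (3.32 to 6.42) and 4.17-fold (3.04 to 5.85) higher than with All-EV. Csf1, the ligand of the Csf1r receptor, stood at 4253, 3971 and 2178, with folds of 1.95 (1.85 to 2.06) and 1.82 (1.73 to 1.92). It passed 2-fold only with libraries set to equal totals, at log2 1.22 and 1.09. The stromal markers were 5.25-fold and 3.51-fold higher in sum than with All-EV, a sum led by collagen genes. Of the 10 past the filter, 8 lay above All-EV beyond counting error and 1 below it in both comparisons. Shares of all genes beyond counting error, given above, are to be read beside these counts. The median log2 ratios of the 10 were 1.18 for Ocn-EV and 0.78 for Prx1-EV. The part of stromal cells in the levels of Tnfrsf11b and Csf1 was not tested.

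Among signalling and transcription genes most were less than 2-fold apart. Of 11 signalling genes past the filter, 1 was 2-fold lower in each comparison, the kinase gene Src, at 590.2 with Ocn-EV, 571 with Prx1-EV and 1253 with All-EV. The log2 ratios of Src were −1.08 and −1.13 on the deposited scale. With libraries set to equal totals they fell short of 2-fold, at −0.83 and −0.91. Of 13 transcription factor genes, 1 was higher and 2 were lower in each comparison. Prdm1, which encodes Blimp1, a factor that silences repressors of osteoclast formation, stood at 360.3, 325 and 151 with Ocn-EV, Prx1-EV and All-EV. Relb, an alternative NF-kB subunit, stood at 328, 328 and 939, and Myc at 698, 699 and 1737. The PU.1 gene Spi1 had folds of 1.24 and 1.19, and Fos 0.982 and 0.731. Tfeb had folds of 1.49 and 1.76, and with libraries set to equal totals it passed 2-fold with Prx1-EV (log2 1.04). Among genes that restrain osteoclast formation, Irf8 had folds of 1.12 and 1.19 and Bcl6 of 1.57 and 1.54. Rbpj of the same list went the other way, with folds of 0.582 (0.558 to 0.607) and 0.666 (0.641 to 0.692). Not every gene of this list is given here.

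Of the 13 other fusion genes, 0 were 2-fold higher and 1 was 2-fold lower with Ocn-EV, and 0 and 0 with Prx1-EV. The lower gene was Itgb3, the beta chain of the vitronectin receptor of osteoclasts, at 809 with Ocn-EV, 939 with Prx1-EV and 1670.4 with All-EV. Its log2 ratio for Ocn-EV was −1.05, and −0.79 when libraries were set to equal totals. Of the 10 resorption genes past the filter, 1 was higher and 2 were lower in each comparison. Slc9b2, a sodium-proton exchanger of osteoclasts, stood at 185, 150.05 and 48.7. Ctsk stood at 843, 967 and 4185, 4.97-fold and 4.33-fold lower than with All-EV. Mmp9, a gelatinase of osteoclasts, macrophages and neutrophils, stood at 39.3, 52.3 and 2865. Beside it, the 8 neutrophil markers had 9, 4 and 44 reads, mostly of S100a8, with Elane, Ly6g and Ltf at 0 in every library, and their part in the Mmp9 level was not tested. The acid secretion genes Tcirg1 and Clcn7 stayed close to All-EV, with folds of 1.11 and 1.18 for Tcirg1 and 0.907 and 1.03 for Clcn7. Slc4a2, which encodes a chloride-bicarbonate exchanger, had folds of 1.88 and 1.81, and Plekhm1, a gene of lysosome trafficking, of 1.71 and 1.82. Both passed 2-fold in both comparisons once libraries were set to equal totals.

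**Figure D5:**
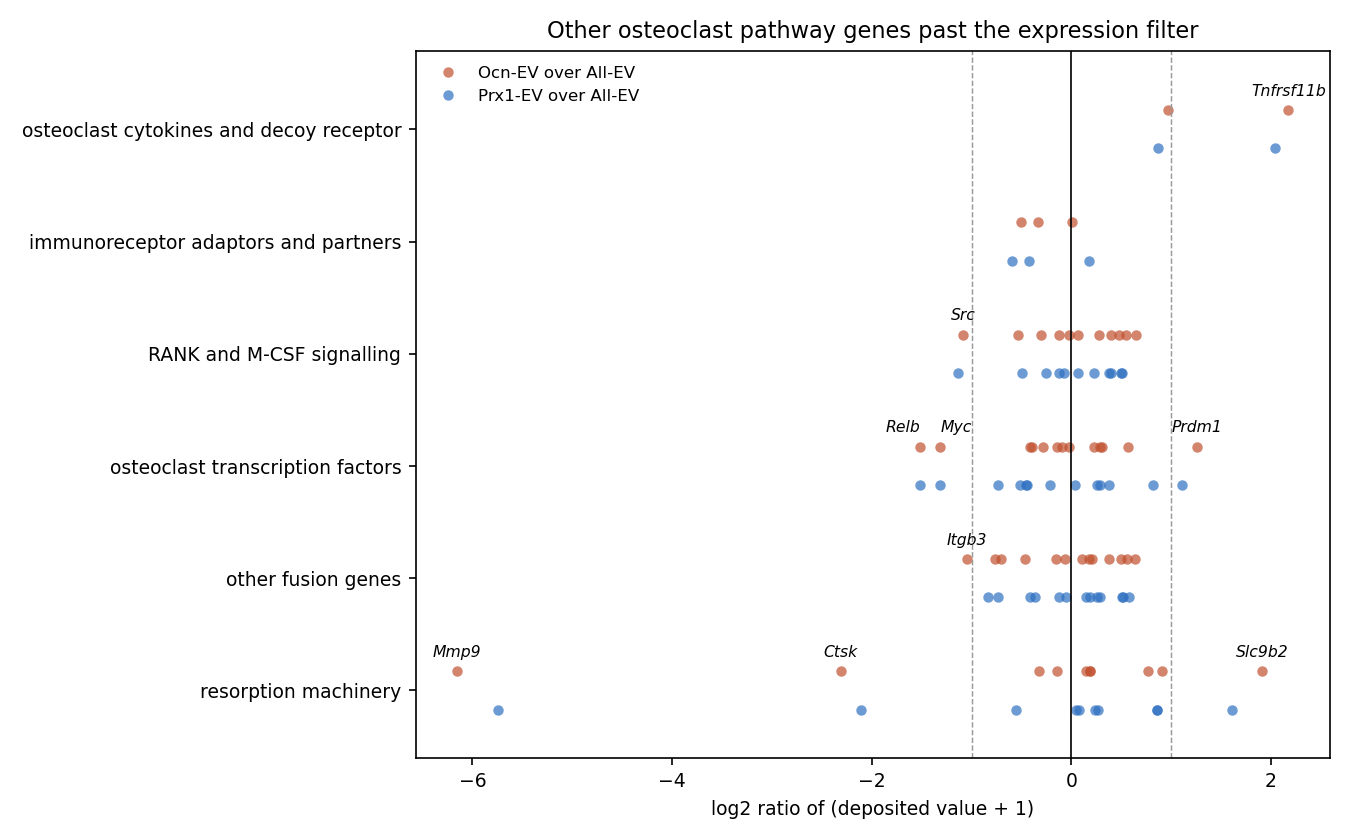
Log2 ratios of (deposited value + 1) of the further pathway genes past the filter, by list (6 of the 7 lists), for Ocn-EV over All-EV and Prx1-EV over All-EV (1 point per gene, 1 library per group). Dashed lines mark 2-fold, and names are given for genes past it. Mmp9 lies at −6.15 and −5.75 and Ctsk at −2.31 and −2.11, while Tnfrsf11b lies at 2.17 and 2.04.

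Genes with ratios most like those of a named gene were found by distance in the plane of the log2 ratios to All-EV, over 3 libraries. Among the 3 nearest to Acp5 were Mt1 and Mospd1, at distances of 0.077 and 0.084. Mt1 stood at 1432, 1487 and 4161 with Ocn-EV, Prx1-EV and All-EV. Nearest to Nfatc1 were Hsd17b4, Irs2 and Ptprj, at distances of 0.0069, 0.010 and 0.014.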

How the data were processed

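Messenger RNA of 3 cultures was measured, 1 library each. The authors deposited 1 normalised signal value per gene and library. Per the submitters' processing notes, the build was mm10 and the tools were DESeq2 2.11.40.8, featureCounts 2.0.3, HISAT2 2.2.1, Trimmomatic 0.38.1 and FastQC 0.74. Settings and use of strand are not given in the sources used here. Reads of genes that overlap Nfatc1, Csf1r or Mitf cannot be told apart from theirs. Dividing by the value of 1 read gave whole reads for 100% of values (tolerance 1e-06). Entrez identifiers were matched to RefSeq GRCm38.p6 symbols (25275 of 27179). Transcript lengths are the longest in GENCODE vM21, for 24390 genes, and were used for levels per length.

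Log2 ratios are log2((a + 1)/(b + 1)) of deposited values, with 2-fold calls among genes with a mean of at least 50. Folds are plain ratios with 95% exact conditional binomial (Clopper-Pearson) intervals from the reads. A library at 0 is taken to allow up to 3 reads. The computation was checked on simulated reads in which the folds of 200 genes were set. A binomial test on reads with Benjamini-Hochberg adjustment compares the libraries, not the conditions. It called 7134 genes for Ocn-EV and 7092 for Prx1-EV, each over All-EV, and 2840 for Ocn-EV over Prx1-EV. It sets no call in the text. Other pseudocounts, filters, equal totals and TMM were tried.

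The genes, the 7 pathway lists and the 8 marker lists were chosen with earlier results of these data known. Further genes were named when they were among the 3 highest or 3 lowest of a list past 2-fold, or had under 10 reads throughout. Csf1, Tyrobp, Fcer1g, Trem2, Spi1, Fos, Irf8, Bcl6, Rbpj, Tcirg1 and Clcn7 were named after their values were seen. So were Slc4a2, Plekhm1, Atp6v0d2, Tfeb, Zbtb46 and markers given at 0. Hbb-bt and protein sequences were not analysed here, and some genes that the rule names are not reported here. Analysis used Python 3.11.15, scipy 1.17.1, pandas 2.3.3 and edgeR 4.0.16.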

Additional observations from a re-analysis of the deposited data

Results flagged for a closer look

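Atp6v0d2 lay on opposite sides of All-EV, on the deposited scale, in the cultures given Ocn-EV and Prx1-EV, with a log2 ratio of −0.059 for Ocn-EV and 0.15 for Prx1-EV, each beyond counting error. The folds were 0.960 (0.931 to 0.990) and 1.11 (1.08 to 1.14). With libraries set to equal totals the Ocn-EV ratio changed sign, to 0.20 beside 0.37 for Prx1-EV, so both then lay above All-EV. The difference between the groups was not tested, since each is 1 library.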

How the results depend on the processing

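No paired analysis was possible because each group has 1 library, and for the same reason no library could be left out. Tnfrsf11a stayed at least 2-fold higher and Acp5 at least 2-fold lower than with All-EV, in both comparisons, under pseudocounts of 0.5 and 5, filters of 10 and 200, no filter, TMM factors and equal totals. Equal totals gave 2 higher osteoclast genes with Ocn-EV, since Nfatc1 passed 2-fold, and put the higher pathway genes at 7 with Ocn-EV and 8 with Prx1-EV. Under a filter of 200 the higher pathway genes were 2 with Ocn-EV and 2 with Prx1-EV, since fewer genes were counted. Counts over all genes moved with the filter and the rule. With a filter of 10, 1168 were higher and 726 lower for Ocn-EV over All-EV, 978 and 717 for Prx1-EV over All-EV, and 280 and 149 for Ocn-EV against Prx1-EV. With no filter these were 2764 and 2052, 2010 and 2042, and 1698 and 971. With a filter of 200, 356 were higher and 322 lower for Ocn-EV and 304 and 275 for Prx1-EV, each over All-EV, and 6 were higher and 2 lower for Ocn-EV against Prx1-EV. Equal totals gave 1113 higher and 248 lower for Ocn-EV, and 908 higher with 232 lower for Prx1-EV, each over All-EV. The binomial test on reads called 3404 higher and 3730 lower for Ocn-EV over All-EV, 3502 and 3590 for Prx1-EV over All-EV, and 1227 and 1613 for Ocn-EV against Prx1-EV. Depth limits Dcstamp, Ocstamp, Oscar and Siglec15, for which no difference could be read.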
